A study of Mus musculus with 7 samples.

Results

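The 8 genes described here are the 7 transcription factors of the blood stem cell heptad, Gata2, Tal1, Lmo2, Lyl1, Runx1, Fli1 and Erg, together with Ldb1, the adaptor that joins several of them. They were found by gene symbol among the 24421 symbols of the count table, all 8 were present, and all 8 passed the filter on low counts that left 13340 genes to test. RNA was sequenced from LSK cells, the lineage-negative, Sca1-positive, Kit-positive marrow fraction in which hematopoietic stem cells and the earliest progenitors are found. The cells came from lethally irradiated BoyJ mice given marrow that carried RosaCreERT2, a Cre recombinase made in all donor cells and switched on by tamoxifen. Donor marrow was Ddx41+/+ (n = 4 libraries, replicates 1 to 4) or Ddx41+/flox (n = 3 libraries, replicates 6 to 8), the latter giving Ddx41+/- cells once Cre removed 1 allele. Both genotypes carried the Cre and both were given tamoxifen, 1 mg per dose over 2 rounds that each lasted 5 days. Each library was made from the LSK cells of a single recipient, taken 8 weeks after transplantation. The ages and sexes of the mice are not given in the labels, cells of the host that survive irradiation may remain in its marrow, and the completeness of excision was not measured here. Total counts per library ranged from 32234499 to 43751290, which gave each of the 8 genes between 2869 and 20923 counts per library, so counting error was smaller than the spread between mice.

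The heptad factors occupy the same enhancers in blood stem and progenitor cells, including enhancers of their own genes, and are known for maintaining one another's expression in a densely connected circuit. Within it, Gata2 binds GATA motifs, Tal1 and Lyl1 bind E-boxes as dimers with E proteins such as Tcf3, Lmo2 and Ldb1 bridge these proteins without touching DNA, Runx1 binds with its partner Cbfb, and Fli1 and Erg are ETS factors. Loss of 1 copy of Gata2 or Runx1 is a known inherited cause of myeloid disease in people, which is also what germline loss of 1 copy of DDX41 is known for. Ddx41 itself encodes a DEAD-box RNA helicase. In Ddx41+/+ libraries it averaged 97.9 ± 6.43 CPM (SD, n = 4), against 67.3 ± 2.62 CPM (SD, n = 3) with 1 allele removed, where CPM is counts per mega-count of TMM-scaled library size. The log2 fold change was -0.54 (SE 0.071, edgeR adjusted p = 0.0052), so the libraries carried the reduction that their labels state.

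The start sites of several of these genes are shown because the factors are known to act on one another's regulatory DNA. Each line gives 250 bases upstream of a RefSeq start site on GRCm38.p6, 5′ to 3′ on the strand of the gene, with capitals marking matches to the GATA-factor letters GATAA, to the E-box letters CANNTG or to the core letters of ETS factors, GGAAG, read on either strand. The first is the upstream start of Gata2 (chr6:88193641-88193890, plus strand), the gene with the largest genotype difference of the 8. The next pair belongs to Tal1 (chr4:115056176-115056425 and chr4:115057561-115057810, plus strand), and the last are an internal start of Ldb1 (chr19:46037071-46037320, minus strand) and the start of Lyl1 (chr8:84701207-84701456, plus strand), the close relative of Tal1 whose levels overlapped between genotypes.
Gata2: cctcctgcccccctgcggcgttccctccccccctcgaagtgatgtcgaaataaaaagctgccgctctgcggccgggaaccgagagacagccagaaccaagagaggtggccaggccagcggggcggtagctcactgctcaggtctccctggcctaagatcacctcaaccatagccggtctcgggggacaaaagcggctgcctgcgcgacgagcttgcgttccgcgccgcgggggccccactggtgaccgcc
Tal1 upstream start: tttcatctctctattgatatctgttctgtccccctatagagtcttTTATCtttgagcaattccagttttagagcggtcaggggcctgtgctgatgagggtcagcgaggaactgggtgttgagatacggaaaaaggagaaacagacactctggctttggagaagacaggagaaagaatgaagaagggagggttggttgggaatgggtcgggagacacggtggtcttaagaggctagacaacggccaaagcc
Tal1 downstream start: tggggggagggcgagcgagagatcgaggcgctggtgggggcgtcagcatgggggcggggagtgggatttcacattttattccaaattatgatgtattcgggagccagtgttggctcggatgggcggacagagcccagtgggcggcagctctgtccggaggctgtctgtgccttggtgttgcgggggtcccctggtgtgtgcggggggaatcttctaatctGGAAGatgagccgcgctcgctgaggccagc
Ldb1: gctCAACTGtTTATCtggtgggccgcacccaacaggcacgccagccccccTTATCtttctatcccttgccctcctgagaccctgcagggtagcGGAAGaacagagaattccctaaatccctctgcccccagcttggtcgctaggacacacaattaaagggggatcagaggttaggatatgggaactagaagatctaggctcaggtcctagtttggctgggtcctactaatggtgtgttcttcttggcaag
Lyl1: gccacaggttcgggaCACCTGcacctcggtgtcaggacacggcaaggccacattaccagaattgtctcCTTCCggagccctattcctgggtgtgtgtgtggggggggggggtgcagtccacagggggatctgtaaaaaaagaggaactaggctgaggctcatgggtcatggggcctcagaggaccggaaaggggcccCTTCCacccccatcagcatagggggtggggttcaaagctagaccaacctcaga

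The Ldb1 window shown, at an internal start, held 2 GATAA matches, an E-box and an ETS match. Other Ldb1 windows held fewer, with 1 ETS match alone at chr19:46039622-46039871 and 0 matches at chr19:46045312-46045561. The upstream Tal1 window held 1 GATAA match, while the Gata2 window shown held none of the letters searched. Across 13 such windows found for Gata2, Tal1, Lyl1, Runx1, Erg and Ldb1, GATAA occurred in 3, against 22.6% of all 32851 windows of this length. CANNTG occurred in 4 of the 13 (66.2% of all windows), GGAAG in 7 (64.1%) and the RUNX letters TGTGGT in 0 (14.0%). These matches describe the letters of short windows at start sites and say nothing of the distal enhancers, which were not analysed here.

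Gata2, Tal1, Lmo2 and Ldb1 had lower levels in every Ddx41+/- library than in any Ddx41+/+ library, whereas Lyl1, Runx1, Fli1 and Erg overlapped between genotypes. With edgeR's quasi-likelihood test and Benjamini-Hochberg adjustment over all 13340 genes, 1 of the 8, Gata2, fell at an adjusted p under 0.05, against 0.0975% of all genes tested, and none rose (0.12% of all genes). At an unadjusted p under 0.05, 4 of the 8 were lower (4.93% of all genes tested) and 0 were higher (5.7%). The same 4 did not overlap between genotypes in the lower direction (5.21% of all genes) and 0 in the higher direction (4.85%). With DESeq2, Gata2, Tal1 and Lmo2 were called, 3 of the 8 against 0.562% of the 12817 genes it adjusted. The median log2 fold change of the 8 was -0.12, compared with -0.0048 over all genes tested. The grouping into 4 lower and 4 overlapping genes was made after their values were seen. The 8 genes were themselves chosen with earlier results of these data known, so the shares describe them and do not test them.

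**Figure D1:**
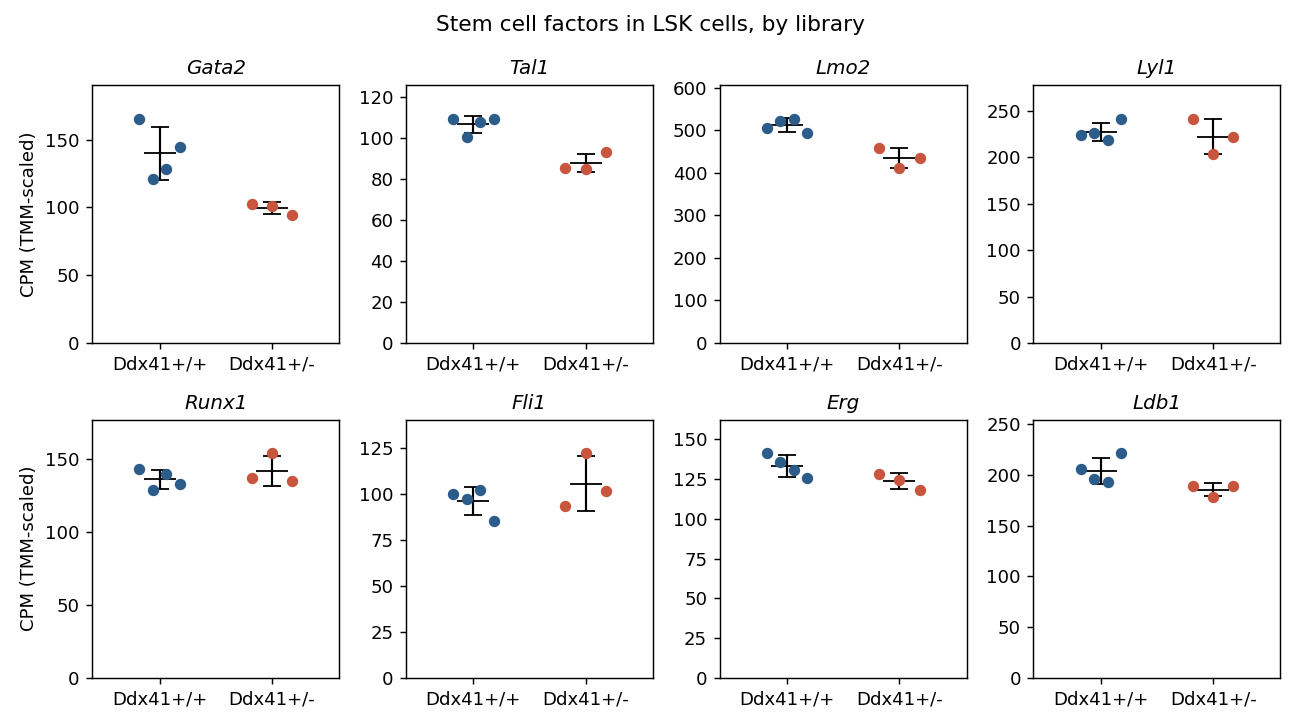
CPM of each of the 8 genes (vertical axes, from 0) in each Ddx41+/+ (blue, n = 4) and Ddx41+/- (red, n = 3) library, with the mean and SD as lines. The points of Gata2, Tal1, Lmo2 and Ldb1 do not overlap between genotypes, with Gata2 at 94.4 to 102.5 CPM in the red points and at 121.2 to 165.6 CPM in the blue ones, while those of Lyl1, Runx1, Fli1 and Erg overlap.

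Gata2 (chr6:88193891-88207032, plus strand, GRCm38) encodes the zinc-finger factor that stem cells need to survive and expand, and that falls as Gata1 takes over in erythroid and megakaryocyte cells. It stood at 165.6, 121.2, 128.2 and 144.7 CPM in Ddx41+/+ replicates 1 to 4, and at 102.5, 101.4 and 94.4 CPM in Ddx41+/- replicates 6 to 8. The Ddx41+/+ libraries were spread widely, with replicate 1 highest, and the Ddx41+/- libraries lay close together below all of them. The means were 139.9 ± 19.7 CPM (SD, n = 4) and 99.4 ± 4.41 CPM (SD, n = 3), so Ddx41+/- cells held 71.0% of the Ddx41+/+ amount. The log2 fold change was -0.49 (SE 0.093, 95% interval -0.69 to -0.30), with an edgeR adjusted p of 0.0471. That call sat near the threshold. It was lost under limma-voom (adjusted p = 0.0701), with library totals as the only scaling (0.0746), with median-of-ratios scaling (0.0502) and in 5 of 7 fits that left out a single library, where the adjusted p reached 0.169 without Ddx41+/- replicate 7 and the call held only without Ddx41+/+ replicate 1 or replicate 2. The log2 fold change itself stayed between -0.56 and -0.40 under all 13 alternatives, and DESeq2 gave an adjusted p of 0.000333.

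In sorted bulk RNA such as this, fewer cells of a type and less RNA per cell cannot be told apart. The summed level of 7 neutrophil granule markers was 724.5 to 1232 CPM in Ddx41+/+ and 1315 to 2255 CPM in Ddx41+/- libraries, with all 7 markers higher in Ddx41+/- by sign and Mmp9 called by edgeR (adjusted p = 0.00677). The summed level of 5 megakaryocyte markers was lower, 171.7 to 205.0 CPM in Ddx41+/+ and 130.1 to 154.1 CPM in Ddx41+/-, also without overlap, with all 5 lower by sign and Pf4 called. Mast cell and basophil markers, which come from cells that also express Gata2, summed to 52.2 to 82.1 CPM and 58.7 to 61.2 CPM, a sum of which 55.3% was the basophil protease Mcpt8 and in which the genotypes overlapped. Of these 7 markers, 5 were lower by sign, with a median log2 fold change of -0.36, and the mast cell proteases Cma1 (2.79 and 0.819 CPM, log2 fold change -1.74, edgeR adjusted p = 0.30) and Tpsb2 (2.26 and 0.886 CPM, -1.33, adjusted p = 0.322) had an unadjusted p under 0.05, from as few as 10 and 11 counts in a library. Cpa3, a further mast cell protease, averaged 23.7 and 17.1 CPM (-0.47, adjusted p = 0.322). With edgeR 0 of the 7 passed the adjusted test. Of 8 LSK markers, 6 were lower by sign and 2 higher. The largest decreases were those of Procr and Slamf1, markers of stem cells within the gate. Procr averaged 6.21 and 4.06 CPM (-0.61, edgeR adjusted p = 0.36) and Slamf1 8.66 and 6.30 CPM (-0.46, adjusted p = 0.355). Only these 2 of the 8 did not overlap between genotypes (5.21% of all genes in the lower direction). Kit (0.0041), Ptprc (0.069) and Ly6a (-0.011) had log2 fold changes near 0. The part of these marker differences in the Gata2 result was not tested.

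Tal1 (chr4:115056426-115071755, plus strand) encodes the basic helix-loop-helix factor required to make blood stem cells. It measured 109.3, 100.7, 107.7 and 109.5 CPM in the Ddx41+/+ libraries and 85.3, 85.1 and 93.0 CPM in the Ddx41+/- libraries, leaving a gap of 7.68 CPM between the genotypes. The means were 106.8 ± 4.17 CPM (SD, n = 4) and 87.8 ± 4.49 CPM (SD, n = 3), and the log2 fold change was -0.28 (SE 0.066, 95% interval -0.42 to -0.14, edgeR adjusted p = 0.105). Tal1 varied little between mice of a genotype, with a pooled SD of 0.064 on the log2 CPM scale, compared with a median of 0.14 over all genes tested. Its difference was smaller than that of Gata2 but stood on tighter replicates, and it passed the adjusted threshold with DESeq2 (adjusted p = 0.0138) and with none of the other 12 alternatives.

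Lmo2 (chr2:103957986-103981878, plus strand) encodes the LIM-only protein that holds Tal1 and Gata proteins to Ldb1. Its libraries stood at 505.8, 522.5, 527.7 and 493.4 CPM in Ddx41+/+ and at 458.0, 410.3 and 436.0 CPM in Ddx41+/-. The lowest Ddx41+/+ library was 35.4 CPM above the highest Ddx41+/- library. Means were 512.3 ± 15.7 CPM (SD, n = 4) and 434.8 ± 23.9 CPM (SD, n = 3), with a log2 fold change of -0.24 (SE 0.059, 95% interval -0.36 to -0.11, edgeR adjusted p = 0.126). As with Tal1, only DESeq2 among the 13 alternatives placed it past the adjusted threshold (adjusted p = 0.017), and its log2 fold change was negative in all 13.

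Ldb1 (chr19:46031570-46045214, minus strand) encodes the adaptor that pairs with itself and brings distant enhancers together. Its libraries read 206.1, 196.5, 192.8 and 221.4 CPM in Ddx41+/+ and 189.4, 178.0 and 189.6 CPM in Ddx41+/-. The genotypes were separated by only 3.16 CPM, and with library totals as the only scaling they overlapped. The log2 fold change was -0.14 (SE 0.064, 95% interval -0.27 to -0.0012), with an edgeR adjusted p of 0.464, so the difference did not pass the test. Exons of Ldb1 share 177 bases with Pprc1 on the opposite strand. The use of strand in counting is not stated, so reads from these bases may have been left out or counted for either gene. Pprc1 averaged 145.6 and 141.2 CPM in the 2 genotypes (log2 fold change -0.044, edgeR adjusted p = 0.86).

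**Figure D2:**
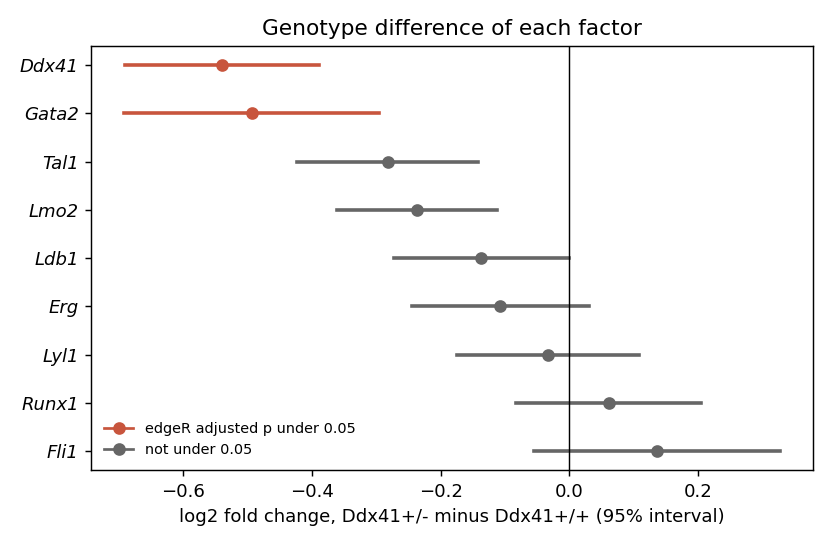
Log2 fold change (Ddx41+/- minus Ddx41+/+, horizontal axis) of Ddx41 and the 8 genes with 95% intervals from the edgeR fit. Red marks an adjusted p under 0.05, reached by Ddx41 (-0.54) and Gata2 (-0.49), and the intervals of Tal1, Lmo2 and Ldb1 also lie below 0.

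Lyl1 (chr8:84701457-84704715, plus strand) is the closest relative of Tal1 and can stand in for it in adult stem cells. It was at 223.7, 226.1, 219.1 and 241.1 CPM in Ddx41+/+ and at 241.8, 203.4 and 221.8 CPM in Ddx41+/- libraries. The highest and the lowest of all 7 values were both Ddx41+/- libraries. The log2 fold change was -0.033 (SE 0.067, 95% interval -0.17 to 0.11, edgeR adjusted p = 0.901), an interval that leaves room for a decrease of the size fitted for Ldb1 but not for that of Gata2. Its sign depended on Ddx41+/- replicate 7, without which the value was 0.026. The exons of Lyl1 share 4 bases with Nfix on the opposite strand.

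Runx1 (chr16:92601466-92826149, minus strand) encodes the factor through which blood stem cells first arise from endothelium. Its libraries were at 142.8, 128.3, 139.3 and 132.8 CPM in Ddx41+/+ and at 137.0, 153.7 and 134.5 CPM in Ddx41+/-. The values of both genotypes interleaved, with Ddx41+/- replicate 7 above the rest. The log2 fold change was 0.061 (SE 0.068, 95% interval -0.083 to 0.21, edgeR adjusted p = 0.802) and -0.0020 without that library. Runx1 shares 106 exon bases with Gm26626, an antisense transcript that has no row in the counts.

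Fli1 (chr9:32422204-32542861, minus strand) and Erg (chr16:95359169-95586593, minus strand) encode closely related ETS factors that act in stem cells, megakaryocytes and endothelium. Fli1 stood at 99.8, 96.9, 101.8 and 85.1 CPM in Ddx41+/+ and at 93.1, 121.9 and 101.3 CPM in Ddx41+/-, with a log2 fold change of 0.14 (SE 0.090, 95% interval -0.055 to 0.33, edgeR adjusted p = 0.634). Ddx41+/- replicate 7 was again the highest library, and without it the value was 0.018. Erg stood at 141.2, 135.9, 130.6 and 125.6 CPM in Ddx41+/+ and at 128.4, 124.7 and 118.3 CPM in Ddx41+/-, with a log2 fold change of -0.11 (SE 0.065, 95% interval -0.24 to 0.031, edgeR adjusted p = 0.589). Only the lowest Ddx41+/+ and the highest Ddx41+/- library of Erg overlapped, and with library totals as the only scaling they did not. The 2 relatives thus had fitted differences of opposite sign, neither of which passed the test.

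Ratios between 2 of the genes within a library do not depend on how libraries are scaled to one another. Of the 28 pairs among the 8 genes, 12 had ratios of counts that did not overlap between genotypes. The share among pairs of other genes was not computed, so the 12 cannot be set against a background. Of the 16 pairs made of 1 of the 4 lower genes and 1 of the other 4, 10 did not overlap, as against 2 of the remaining 12 pairs. Since the grouping came from the same values, this describes the pattern and does not test it. The ratio of Gata2 to Runx1 counts was 0.920 to 1.16 in Ddx41+/+ and 0.660 to 0.748 in Ddx41+/- libraries, a mean log2 difference of -0.54. The ratio of Gata2 to Erg was tight in Ddx41+/-, at 0.798 to 0.813, against 0.892 to 1.17 in Ddx41+/+. The ratio of Gata2 to Fli1 was 1.25 to 1.70 in Ddx41+/+ and 0.832 to 1.10 in Ddx41+/-, lowest in replicate 7, where Fli1 was high.

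Ratios among Tal1, Lmo2 and Gata2 overlapped between genotypes, though those of Gata2 to Tal1 and to Lmo2 were lower on average in Ddx41+/-. The ratio of Tal1 to Lmo2 was 0.193 to 0.222 in Ddx41+/+ and 0.186 to 0.213 in Ddx41+/-, a mean log2 difference of -0.045. Gata2 to Tal1 overlapped at 1.19 to 1.52 and 1.02 to 1.201 (a mean log2 difference of -0.20). Gata2 to Lmo2 overlapped at 0.232 to 0.327 and 0.216 to 0.247 (-0.25). Against Ldb1, however, both Gata2 (0.617 to 0.804 and 0.498 to 0.570) and Tal1 (0.495 to 0.559 and 0.450 to 0.490) were lower without overlap, whereas Lmo2 to Ldb1 overlapped (2.23 to 2.74 and 2.30 to 2.42, a mean log2 difference of -0.10). Tal1 also separated from its relative, since the ratio of Tal1 to Lyl1 was 0.445 to 0.492 in Ddx41+/+ and 0.353 to 0.419 in Ddx41+/-. The ratio of Gata1 to Gata2, the pair that exchange places on DNA as progenitors turn erythroid, was 0.187 to 0.261 and 0.240 to 0.317, which overlapped.

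**Figure D3:**
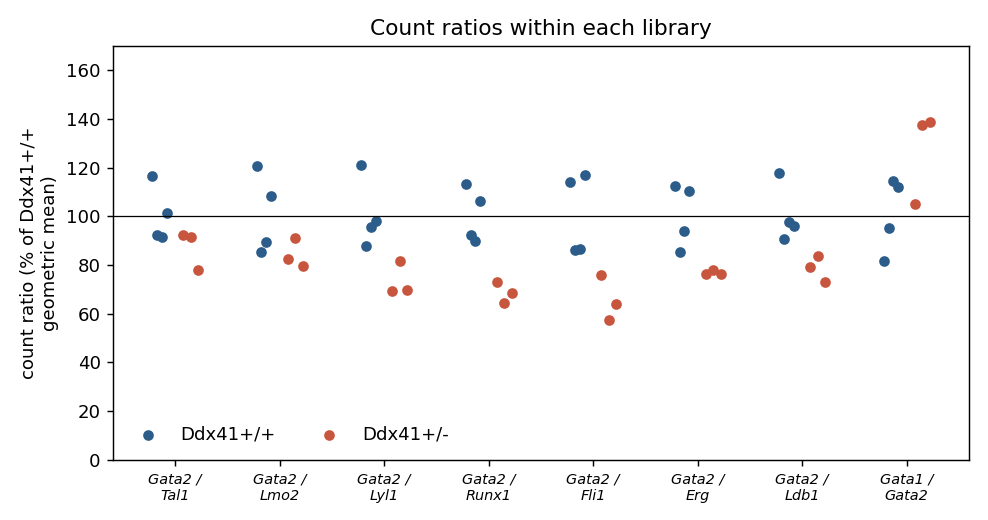
Count ratios of Gata2 to each of the other 7 genes, and of Gata1 to Gata2, in each library (blue Ddx41+/+, n = 4, red Ddx41+/-, n = 3), as a percentage of the Ddx41+/+ geometric mean. Gata2 to Lyl1, Runx1, Fli1, Erg and Ldb1 does not overlap between genotypes, and the other 3 ratios do.

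Per kilobase of annotated exon, Lmo2 had the highest level of the 8 genes and Runx1 the lowest. Lmo2 stood at 236.5 ± 7.26 CPM per kilobase in Ddx41+/+ and 200.7 ± 11.02 in Ddx41+/- (SD, n = 4 and n = 3 throughout), followed by Lyl1 at 126.4 ± 5.28 and 123.5 ± 10.7. Both were thus far more abundant per length than the DNA-binding partners Gata2, at 25.9 ± 3.66 and 18.4 ± 0.817, and Tal1, at 24.4 ± 0.952 and 20.1 ± 1.03. Between them lay Ldb1 (44.3 ± 2.78 and 40.3 ± 1.45), Erg (38.5 ± 1.94 and 35.7 ± 1.48) and Fli1 (27.5 ± 2.15 and 30.2 ± 4.26). Runx1, at 11.3 ± 0.538 and 11.8 ± 0.870, was last. With the length of the longest single transcript in place of all exons, Runx1 came to 23.2 and 24.2 CPM per kilobase, below Tal1 (25.4) in Ddx41+/+ and above it (20.8) in Ddx41+/-. Gata2 then came to 39.2 and 27.8, which placed it above Fli1 (28.9) and near Erg (41.04) in Ddx41+/+. With all annotated exons as the length, neighbours in the order of means kept that order in all 7 libraries, except Fli1 above Gata2 in 5 and Gata2 above Tal1 in 2. By that length the Ddx41+/- mean of Tal1 (20.1) was above that of Gata2 (18.4). By the longest transcript it was below (20.8 against 27.8), so the order of this pair depended on the length used.

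Partner genes of the complex were examined next, from a list of 17. This list and those below were compiled from general knowledge, but with earlier results of these data known. Their counts and medians thus describe the lists and do not test them. Of the 17, 15 were tested, and Ldb2 and Runx1t1 had at most 13 and 9 counts in any library. With edgeR 0 of the 15 passed the adjusted test, and DESeq2 also called 0. At an unadjusted p under 0.05, 3 were lower (4.93% of all genes) and 0 higher (5.7%), and the median log2 fold change was -0.041. The 3 were Cbfa2t3, the Eto2 corepressor that sits on the Tal1 complex (101.6 ± 12.5 and 83.4 ± 7.66 CPM, log2 fold change -0.28, SE 0.093, edgeR adjusted p = 0.293), Zfpm1, the Fog1 cofactor of GATA proteins (112.3 and 92.8 CPM, adjusted p = 0.336), and Gfi1b, a repressor of megakaryocyte and erythroid genes (37.6 and 31.0 CPM, adjusted p = 0.366). Without Ddx41+/- replicate 6, none of the 15 had an unadjusted p under 0.05. Cbfa2t3 was the only gene of the list without overlap, at 119.0, 90.1, 95.4 and 101.8 CPM in the Ddx41+/+ libraries against 74.6, 88.0 and 87.7 CPM. Tcf3, the E protein partner of Tal1 and Lyl1, averaged 227.3 and 217.5 CPM (log2 fold change -0.064, SE 0.080, edgeR adjusted p = 0.83). Cbfb, the partner of Runx1, averaged 162.5 and 167.0 CPM (0.039, adjusted p = 0.887), and Gata1 averaged 31.96 and 28.8 CPM (-0.15, SE 0.12, adjusted p = 0.70).

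Close relatives of the 8 were mostly at or near 0 counts. Of 10 such genes, Gata4, Gata5, Lmo3 and Fev had no count in any library and Gata6 and Tal2 had at most 7 and 12 counts. The 4 that were tested were Gata3 (5.02 and 3.85 CPM, edgeR adjusted p = 0.582), Lmo1 (10.8 and 11.1 CPM, adjusted p = 0.944), Runx2 (92.9 and 93.0 CPM, adjusted p = 0.996) and Runx3 (149.0 and 137.9 CPM, adjusted p = 0.627). With edgeR 0 of these passed the adjusted test and 0 had an unadjusted p under 0.05.

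Of 19 other transcription factors of stem and progenitor cells, all tested, edgeR called 1, Mycn, which fell, and an unadjusted p under 0.05 was reached by 6, all lower (4.93% of all genes were lower at that level). The 6 became 3 without Ddx41+/- replicate 7, and 4 without Ddx41+/+ replicate 1, Ddx41+/+ replicate 2 or Ddx41+/- replicate 8. The call of Mycn was lost without Ddx41+/- replicate 8 (adjusted p = 0.0924). The median log2 fold change of the 19 was -0.10. Mycn, a Myc family factor of stem cells, measured 31.6, 21.7, 23.5 and 22.1 CPM in Ddx41+/+ and 13.3, 14.6 and 11.02 CPM in Ddx41+/-, with a log2 fold change of -0.93 (SE 0.15, adjusted p = 0.0157). Hlf, a leucine-zipper factor largely restricted to stem cells within the marrow, measured 115.4, 104.5, 90.2 and 89.9 CPM and then 75.9, 65.3 and 77.4 CPM, with a log2 fold change of -0.46 (SE 0.094, edgeR adjusted p = 0.0620), and it passed with DESeq2 and limma-voom. Meis1, the Hox cofactor, averaged 83.8 and 69.4 CPM, also without overlap (-0.27, adjusted p = 0.245). Spi1, the myeloid ETS factor that opposes Gata proteins, averaged 176.5 ± 12.8 and 183.1 ± 9.48 CPM (0.053, adjusted p = 0.837).

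Genes that the heptad is known to bind or regulate were taken as a list of 16, of which 15 were tested and Gp6 was at 0 in all libraries. With edgeR 1 of the 15, Pf4, fell past the adjusted threshold, and at an unadjusted p under 0.05, 8 were lower (4.93% of all genes) and 0 higher (5.7%). The 8 became 5 without Ddx41+/+ replicate 1 and 5 without Ddx41+/- replicate 6. Their median log2 fold change was -0.36. Pf4, the platelet chemokine, measured 50.3, 49.6, 53.0 and 41.7 CPM in Ddx41+/+ and 30.03, 35.3 and 33.6 CPM in Ddx41+/-, with a log2 fold change of -0.56 (SE 0.096, adjusted p = 0.0283). The call was lost without Ddx41+/+ replicate 2 or 3 and without Ddx41+/- replicate 6 or 8, with adjusted p-values of 0.0992, 0.064, 0.0803 and 0.0924. Itga2b, the platelet integrin CD41, averaged 120.8 ± 14.9 and 96.7 ± 10.1 CPM (-0.32, adjusted p = 0.242), and Robo4, a guidance receptor of stem cells and endothelium, averaged 10.5 and 7.34 CPM without overlap (-0.51, adjusted p = 0.293). Pf4, Itga2b and Gp9 of this list are also megakaryocyte markers, whose summed level was lower in Ddx41+/- as given above, and the part of those cells in the values was not tested.

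Kit, a classic target of Gata2 and Tal1 that also defined the sort, stood at 466.3 ± 32.2 and 467.6 ± 19.4 CPM (log2 fold change 0.0041, SE 0.064, edgeR adjusted p = 0.990). The cells were gated on the Kit protein, and the effect of that gate on Kit RNA was not tested. The 8 LSK markers summed to 1750 to 1929 CPM in Ddx41+/+ and 1672 to 1817 CPM in Ddx41+/-, of which Cd34 made up 41.2%. With edgeR 0 of the 8 passed the adjusted test. At an unadjusted p under 0.05, 4 were lower (4.93% of all genes) and 0 higher (5.7%). The 4 were Procr and Slamf1 (values above), Flt3 (250.1 and 197.3 CPM, log2 fold change -0.34, adjusted p = 0.355) and Cd34 (777.1 and 693.5 CPM, -0.16, adjusted p = 0.403). Ly6a, which encodes the Sca1 antigen, was present at 13.3 to 30.5 CPM across libraries. Endothelium also expresses heptad genes, Erg, Fli1, Tal1 and Lmo2 among them. Its defining genes Cdh5 and Kdr were at 0.051 to 1.08 CPM across libraries, with log2 fold changes of -1.91 and 1.18. The 8 endothelial markers summed to 256.1 to 295.6 and 250.9 to 274.0 CPM, of which Pecam1 made up 53.5%. By sign 7 of the 8 were lower and 1 higher. At an unadjusted p under 0.05, 3 were lower (4.93% of all genes) and 0 higher (5.7%), and with edgeR 0 passed the adjusted test. The part of endothelium in the values of the heptad genes, Gata2 included, was not tested. Erythroid markers summed to 114.4 to 223.4 and 147.1 to 184.4 CPM, macrophage markers to 163.0 to 179.1 and 158.5 to 216.6 CPM, B lineage markers to 33.5 to 48.9 and 43.7 to 61.0 CPM, and T and NK markers to 220.7 to 272.3 and 250.9 to 281.4 CPM, nearly all of the last from Nkg7. Each of these sums overlapped between genotypes.

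**Figure D4:**
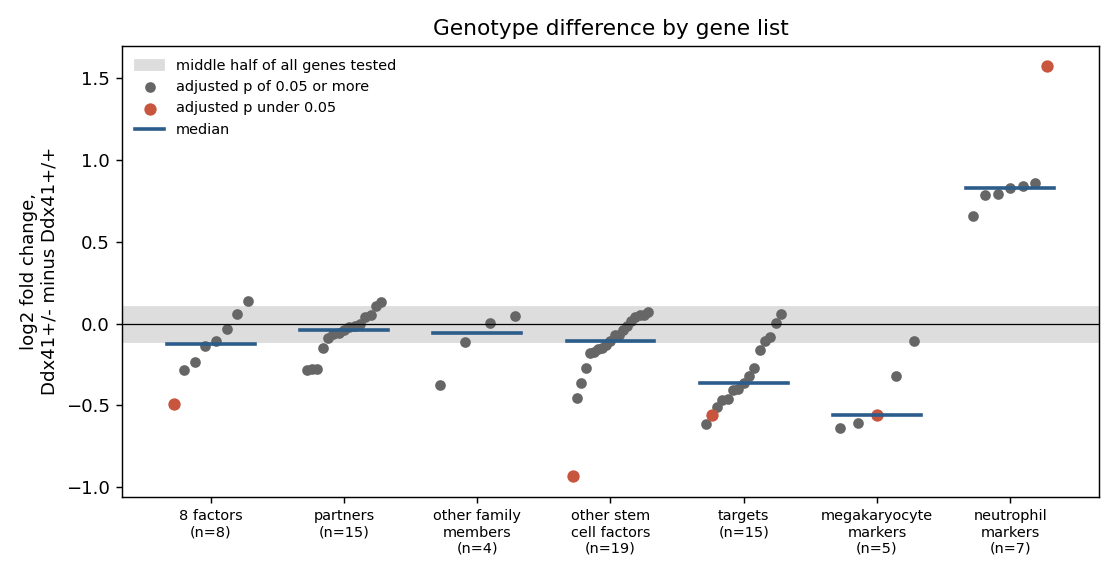
Log2 fold change (Ddx41+/- minus Ddx41+/+, vertical axis) of every tested gene in 7 lists, with the median as a blue line, genes past an edgeR adjusted p of 0.05 in red and the middle 50% of all genes tested as a grey band. The median of the 15 target genes is -0.36 and that of the 15 partners -0.041, while megakaryocyte markers lie below 0 and neutrophil markers above it. The lists were chosen with earlier results of these data known, so the medians are descriptions.

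The genes whose levels followed those of the 8 most closely over the 7 libraries were found among 9098 genes with a mean of at least 10 CPM, by the root mean square difference between log2 CPM profiles centred on their means. These profiles include the genotype difference, so likeness over them is a description. For Gata2 the nearest were 1700001L05Rik (0.072), Lfng (0.093), a modifier of Notch receptors, and Ptms (0.10), which encodes parathymosin. All 3 were lower in every Ddx41+/- library than in any Ddx41+/+ library, with Ptms at 23.7 to 27.0 CPM in Ddx41+/+ and 16.8 to 19.2 CPM in Ddx41+/-. The nearest of the other heptad genes was Tal1, at 0.16. It was picked from 7 genes and those above from 9098, so the distances cannot be compared. Tal1 and Lmo2 were each other's nearest among the 8 (0.084), as were Runx1 and Fli1 (0.097) and Lyl1 and Ldb1 (0.072), the last pair although Ldb1 was separated between genotypes and Lyl1 was not. Beyond the 8, the nearest gene was Pde4b for Tal1 (0.050), Slc25a45 for Lmo2 (0.027), Psmd13 for Lyl1 (0.022), Nans for Runx1 (0.026), 2810004N23Rik for Fli1 (0.046), Fads1 for Erg (0.031) and Ercc4 for Ldb1 (0.022).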

How the data were processed

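LSK cells from 7 transplanted mice were sequenced, 4 Ddx41+/+ and 3 Ddx41+/-, grouped by the genotype in the labels. The deposited table holds raw counts per gene symbol, made by the authors from poly(A) libraries. The submitters' processing notes name FastQC 0.11.7, HISAT2 2.0.5, featureCounts 1.5.2 and the mm10 build, without settings. The labels name a stranded library kit and the study's methods an unstranded one, so strand use is unsettled. A Ddx41+/- library numbered 5 was removed per the name of the table, for a reason not stated, and was not analysed here. All columns of sample values were used.

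Counts were filtered with filterByExpr, scaled by TMM and fitted in edgeR 4.0.16 (R 4.3.3) by robust quasi-likelihood, genotype as the only term, with Benjamini-Hochberg adjustment over 13340 genes and a threshold of 0.05. SEs were taken as the fold change divided by the root of F. P-values measure the spread between recipient mice, and whether recipients shared a donor is not stated. Alternatives were DESeq2 1.42.0, limma-voom 3.58.1 with quality weights, other scalings, no expression filter and leaving out each library. Gene positions and exon lengths came from GENCODE M21. The members and the gene lists were chosen with earlier results of these data known. Genes were named from each of the partner, family, stem factor and target lists if called, with the 3 of smallest p, together with Gata1, Spi1 and Kit. Tcf3, Cbfb, Runx2 and overlapping neighbours were added after their values were seen.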

Additional observations from a re-analysis of the deposited data

How the results depend on the processing

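No paired analysis was possible because the genotypes share no replicate number. Gata2 was the 1 heptad gene called, and the count was 3 with DESeq2, 0 with limma-voom, 0 with median-of-ratios scaling, 0 with library totals only, and 0 to 1 when single libraries were left out. At an unadjusted p under 0.05 it was 3 or 4 of the 8 under all 13 alternatives, counted in either direction. These were not always the same genes. Without Ddx41+/- replicate 6 they included Fli1, which was higher (log2 fold change 0.218, edgeR unadjusted p = 0.0376), and not Ldb1 (edgeR unadjusted p = 0.0577). The genes called overall numbered 29, 164 with DESeq2, 39 with limma-voom, 24 with median-of-ratios scaling, 15 with library totals only, 91 without the expression filter and 7 to 41 with single libraries left out. Other stem factors called were 2 with DESeq2, 2 with limma-voom and 2 without the expression filter, each time with Hlf added to Mycn, and 0 to 1 with single libraries left out (0 without Ddx41+/- replicate 8). Target genes called were 0 to 1 with single libraries left out. Some values near 0 changed sign. Leaving out single libraries gave -0.098 to 0.026 for Lyl1, -0.0020 to 0.097 for Runx1, -0.034 to 0.13 for Lmo1, -0.036 to 0.045 for Kit and -0.10 to 0.077 for Nfix (log2 fold changes). Lmo1 was -0.024 with limma-voom. Kit was -0.0043 with upper-quartile scaling and -0.011 with library totals only, and Nfix was -0.00060 and -0.011. The causes were not tested. Gata2, Tal1, Lmo2, Ldb1 and Erg were negative under all 13 alternatives. Ddx41 was called under all 13. Ldb1 was called under none of the 13.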
